A study of Mus musculus with 2 samples.

Results

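The kinesin motor family was examined in 2 Agilent one-colour mouse arrays, 1 for each treatment of a culture of RAW246.1 cells, labelled as macrophage. Members were all non-control probes whose accession resolves to a mouse symbol made of Kif and a digit, with the Kifc genes included. This rule took 58 probes of 41 genes, out of 20659 named genes on the arrays. Kinesins are motor proteins that hydrolyse ATP and move along microtubules. One group builds the spindle, moves chromosomes and completes cytokinesis, and its genes are transcribed mainly from S phase to mitosis. Another group carries vesicles, lysosomes, mitochondria and endosomes in cells at any stage, and in macrophages transport kinesins bring lysosomes and membrane proteases to the cell periphery. Further members act in cilia or change the growth and shrinkage of microtubules.

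Both cultures were kept in DMEM medium. One was mock-treated with PBS, and synthetic miR-122, a microRNA abundant in liver, was added to its counterpart for a time that no label states. The treatment text gives 5 μg/mL of the microRNA and is the same for both samples. The title of the second sample reads as if the microRNA was absent, whereas its source name and description say that it was given, and it is named the miR-122 array on their basis. No measured value was used to check that label. The study was about inflammatory activation of macrophages by this hepatic microRNA. The labels give 1 sample for each treatment, so no difference here has a replicate, a standard deviation between cultures or a p-value. Directions and sizes describe these 2 arrays. Of 9 macrophage markers, 8 were well above background on both arrays, and the median difference of the 8 was -0.41. They did not move one way, since Itgam had -0.85, Csf1r -0.78 and Adgre1 -0.58, whereas Mrc1 had 1.11, the only one past 2-fold, Spi1 0.58 and Ptprc 0.45. Of 19 markers of other cell types, 9 were well above background on both arrays and none of these differed by 2-fold.

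Of the 41 kinesin genes, 32 were well above background on both arrays by the flag of the scanner software. Another 3 passed that flag with PBS alone, 1 with miR-122 alone and 5 on neither array. A gene is represented by its brightest probe. Values are given as the background-subtracted signal of the spot, and as the level, which is the log2 signal relative to the 75th percentile of its array. Differences are log2 levels, miR-122 minus PBS. That scaling adds 0.28 to every log2 difference of the signals, because the 75th percentile was lower on the miR-122 array. Signals of different probes are not comparable with each other.

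Mitotic kinesins were lower on the miR-122 array, whereas transport kinesins stayed close to the bulk of genes. All 9 mitotic kinesins that were well above background on both arrays had negative differences, between -1.75 and -0.76, with a median of -1.40. Of these 9, 8 were at least 2-fold lower, against 1.78% of all 15022 genes measured on both arrays. The 15 transport kinesins ranged from -0.62 to 1.997 with a median of 0.04, and the median of all 15022 genes was 0.09. None of the 15 was 2-fold lower. The lowest transport kinesin, Kif13a at -0.62, lay above the highest mitotic kinesin, Kif23 at -0.76, so the differences of these classes did not overlap. That gap was narrow beside the technical spreads given below, and it depended on how genes were assigned. In another assignment Kif2a (-0.38) and Kif24 (-0.21) counted as mitotic, and Kif17, Kifc2 and Kifc3 left the transport class. The classes then overlapped, with medians of -1.29 for mitotic and 0.08 for transport kinesins. In the whole family 8 of 32 genes were lower by 2-fold or more and 2 were higher by that much, as were 4.57% of all genes. The scanner software puts the error of the log2 difference between 0.20 and 0.25 for the 9 mitotic genes. Different probes of a gene varied by a pooled standard deviation of 0.30 over 3575 genes. Both are technical measures within arrays and leave out the spread between cultures. In RNA of a whole culture, fewer dividing cells and less transcript per dividing cell cannot be told apart.

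**Figure D1:**
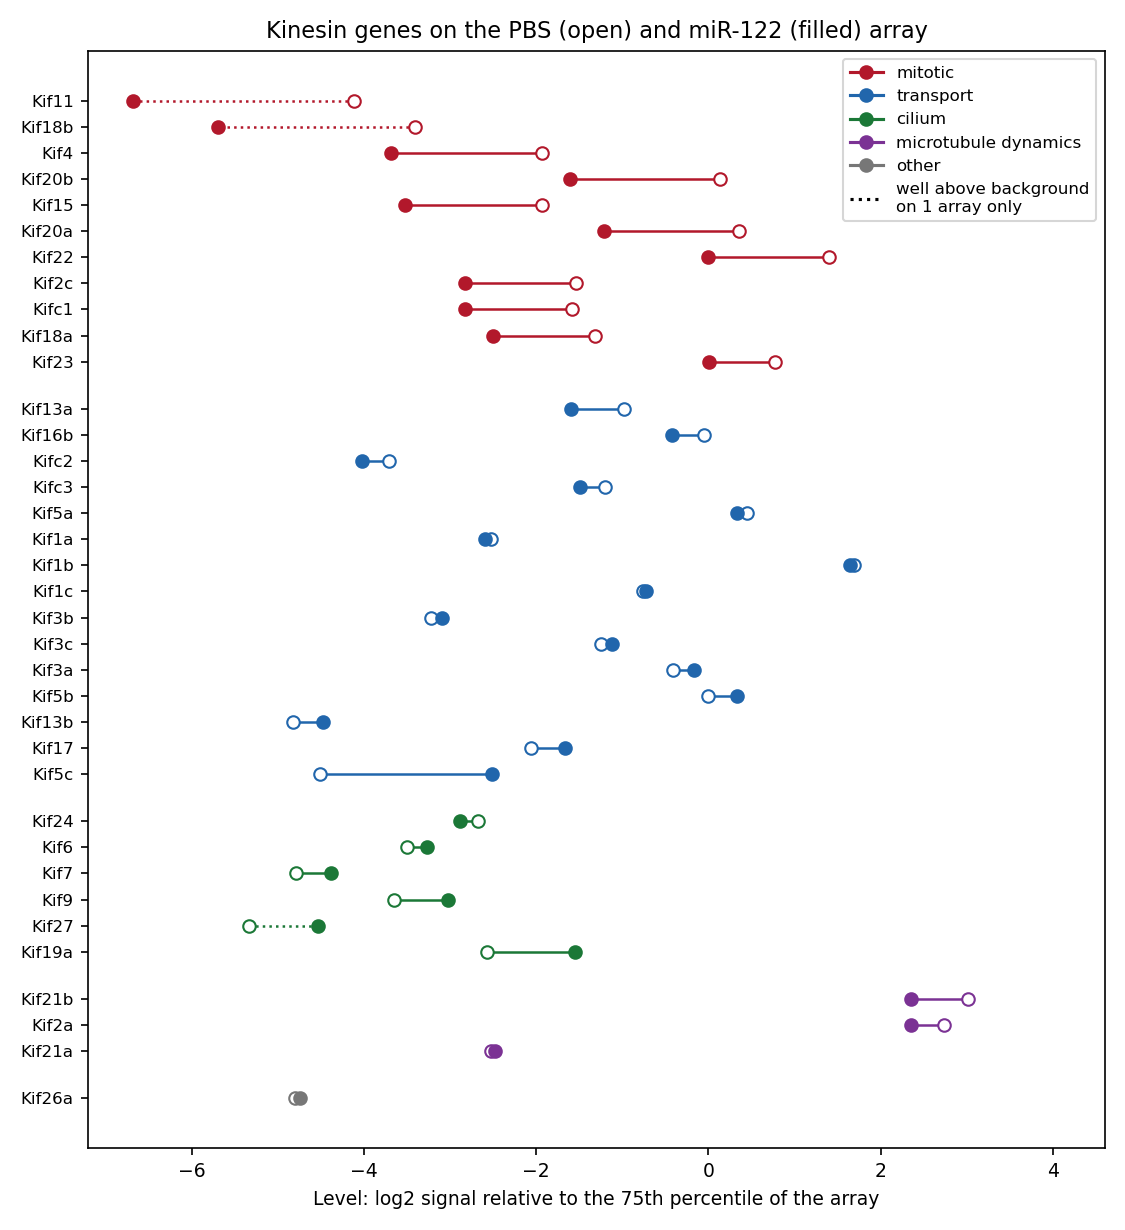
Level of each kinesin gene (x axis, log2 signal relative to the 75th percentile of the array) on the PBS array (open circles) and the miR-122 array (filled circles), coloured by class, for the 36 genes well above background on at least 1 array; dotted lines mark genes well above background on 1 array only. All 9 mitotic genes well above background on both arrays have their filled circle to the left. Kif11 and Kif18b do too, but they passed the flag with PBS alone, which favours that direction. Among the transport kinesins the longest line is that of Kif5c, from -4.51 to -2.51.

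Kinesins of the anaphase spindle midzone and cytokinesis had some of the larger differences. Kif4, the chromokinesin that sets the length of midzone microtubules, had signals of 110.5 with PBS and 27.1 with miR-122. It was 3.37-fold lower, the gene at rank 38 of 15022 counted from the lowest difference. The Kif4 probe could also bind transcripts of its pseudogene Kif4-ps, whose own probe was well above background on neither array. Kif20b, a midzone motor needed for the completion of cytokinesis, went from 462.6 to 114.3 and was 3.34-fold lower, at rank 40. Kif20a, also known as MKLP2, which brings the chromosomal passenger complex to the midzone, went from 540.5 to 150.5 and was 2.96-fold lower. Kif23, or MKLP1, the motor subunit of centralspindlin, went from 718.0 to 348.9. At 1.70-fold lower it was the only one of the 9 that did not reach 2-fold.

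Motors that separate the spindle poles or bundle spindle microtubules were lower to a similar degree. Kif15, a tetrameric motor that can keep the poles apart alongside Kif11, had signals of 110.2 and 30.2 and was 3.02-fold lower. Kifc1, a minus-end motor that cross-links spindle microtubules and clusters centrosomes, had 140.3 and 49.2 and was 2.36-fold lower. Its close copy Kifc5b was well above background on neither array, and a probe of one may bind transcripts of the other. Kif11, or Eg5, the motor that pushes the poles apart and the target of the inhibitor monastrol, passed the background flag with PBS alone. Its signals were 24.2 (software error 3.28) with PBS and 3.39 (software error 2.49) with miR-122. Set against the lowest level well above background on the miR-122 array, -4.92, Kif11 was at least 1.74-fold lower.

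Motors that act on chromosomes and kinetochore microtubules followed the same direction. Kif22, also called Kid, which pushes chromosome arms away from the poles, had signals of 1107 and 345.3 and was 2.65-fold lower. Kif2c, the centromeric microtubule depolymerase MCAK, had 145.1 and 48.9 and was 2.45-fold lower. A second Kif2c probe gave signals of 60.4 and 26.1 and a difference of -0.93. Kif18a, which dampens chromosome oscillations at the metaphase plate, had 169.0 and 61.2 and was 2.28-fold lower. Its relative Kif18b, a motor that works on astral microtubules, passed the flag with PBS alone, with 39.7 against 6.74, and was at least 2.85-fold lower by the same bound as used for Kif11.

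The size of these differences depended on how the signal was processed. The normexp setting starts from median spot and background intensities, models background and adds an offset of 50 before log2. The parts of the signal used, the background model and the offset were not told apart. With normexp all 9 mitotic genes were still lower, but 3 of them, Kif22, Kif20b and Kif20a, reached 2-fold, and the median was -0.71. Kif4 had a difference of -0.78 and Kif15 of -0.63 under it. Of the 8 genes past 2-fold, Kif22 moved least, from -1.40 to -1.27. Kif11 and Kif18b, which have bounds above, had normexp differences of -0.19 and -0.29, so both bounds hold only without that correction. Under normexp the differences of mitotic and transport kinesins still did not overlap, with Kif15 at -0.63 and Kif13a at -0.43. With median scaling, quantile normalization and the log2 values of the authors, 8 of the 9 were at least 2-fold lower, with medians between -1.58 and -1.42. The last 2 give nearly the same differences for these genes and are not separate checks.

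**Figure D2:**
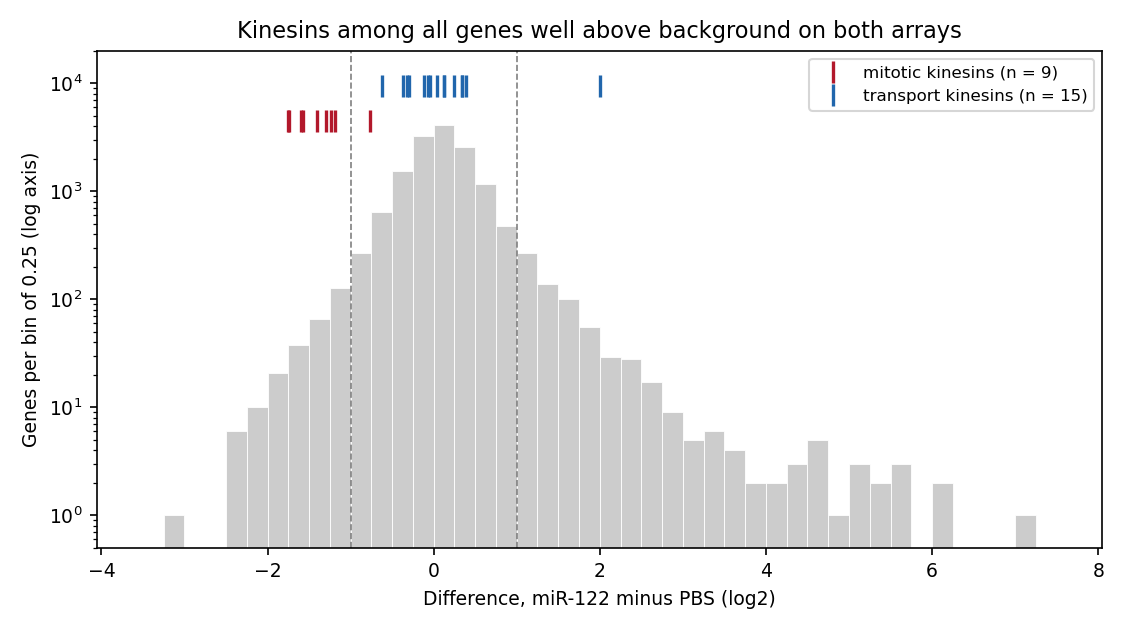
Histogram of the difference, miR-122 minus PBS, in bins of 0.25 (x axis, log2) for the 15022 genes well above background on both arrays, with the number of genes on a log axis and dashed lines at 2-fold. Red ticks mark the 9 mitotic kinesins, of which 8 lie left of the lower 2-fold line, and blue ticks the 15 transport kinesins, of which Kif5c alone lies right of the upper one.

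Most promoters of the mitotic kinesins share letters that those of the transport kinesins lacked. Many genes transcribed in G2 and mitosis carry a cell cycle genes homology region, abbreviated CHR, a site bound by MuvB complexes, and CCAAT boxes bound by NF-Y. RefSeq promoters of assembly GRCm38.p6, from 250 bases before to 50 after the start of transcription, were searched on both strands for TTTGAA, the usual form of the CHR, and for CCAAT; in no kinesin promoter did a match to one overlap a match to the other. Promoters were found for 12 mitotic kinesins, including Kif14, which has no matched probe here, and for 10 transport kinesins. The 12 also include Kifc5b, the close copy of Kifc1, with matches spaced alike, so these promoters are not separate cases. No promoter was found for the transport kinesins Kif5a, Kif5b, Kif13b, Kifc2 and Kifc3. TTTGAA was present in 11 of the 12 mitotic promoters and in 0 of the 10 transport promoters, against 18.1% of 27025 promoters in the table. Of 11 promoters of other kinesins with a probe 2 held it, those of Kif26b and Kif27. It was present for 26.9% of 212 genes at least 2-fold lower and 17.3% of 542 at least 2-fold higher. The share was 13.7% of 11983 genes measured on both arrays. A link between these letters and the differences was not tested. Of the 9 mitotic genes well above background on both arrays 8 had a promoter, and 7 of these 8 held it; Kif18a did not, and Kif20a was not matched. In 9 of the 12 the match began within 30 bases of the start, which was so in 3.10% of all promoters; this window was chosen after the positions were seen. Both motifs together were present in 8 of the 12, against 7.12% of all promoters. Where a gene has several starts its first entry was used. Over all entries, 1 of the 10 transport genes held TTTGAA, against 20.2% of all genes with a promoter. A match is a description of letters, and binding was not measured.

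The stretches below are shown because these mitotic genes hold TTTGAA close to their start, with Kif5c and Kif3a as transport kinesins for contrast. Each runs 5′ to 3′ on the strand of the gene from 60 bases before the start to 30 after it, with capitals for TTTGAA or its reverse complement TTCAAA, and for CCAAT or its reverse complement ATTGG. Positions in GRCm38.p6 are chr19:37376322-37376411 on the plus strand for Kif11, chr9:122951021-122951110 on the plus strand for Kif15, chrX:100626005-100626094 on the plus strand for Kif4, chr19:34922298-34922387 on the plus strand for Kif20b and chr7:127042391-127042480 on the minus strand for Kif22. The others are chr9:61946770-61946859 on the minus strand for Kif23, chr17:33890604-33890693 on the minus strand for Kifc1, chr2:49619226-49619315 on the plus strand for Kif5c and chr11:53567309-53567398 on the plus strand for Kif3a.
Kif11: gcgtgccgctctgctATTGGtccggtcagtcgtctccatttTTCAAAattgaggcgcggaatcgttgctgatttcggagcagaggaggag
Kif15: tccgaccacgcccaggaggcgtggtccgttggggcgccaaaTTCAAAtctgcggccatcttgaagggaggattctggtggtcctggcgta
Kif4: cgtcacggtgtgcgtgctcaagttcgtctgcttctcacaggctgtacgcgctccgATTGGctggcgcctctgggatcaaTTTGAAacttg
Kif20b: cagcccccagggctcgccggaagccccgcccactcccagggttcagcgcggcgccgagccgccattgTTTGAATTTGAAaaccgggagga
Kif22: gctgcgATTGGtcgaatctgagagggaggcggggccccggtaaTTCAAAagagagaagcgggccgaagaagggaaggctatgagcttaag
Kif23: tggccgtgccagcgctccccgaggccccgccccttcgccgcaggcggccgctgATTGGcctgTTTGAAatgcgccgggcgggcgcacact
Kifc1: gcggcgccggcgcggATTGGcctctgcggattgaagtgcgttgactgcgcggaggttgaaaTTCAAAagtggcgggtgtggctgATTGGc
Kif5c: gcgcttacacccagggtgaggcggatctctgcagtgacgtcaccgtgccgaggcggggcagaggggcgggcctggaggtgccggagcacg
Kif3a: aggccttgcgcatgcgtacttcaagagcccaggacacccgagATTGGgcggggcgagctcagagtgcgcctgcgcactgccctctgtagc

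In Kif11 the CHR letters begin 19 bases and those of CCAAT 45 bases upstream of the start, and in Kif22 they begin 17 and 54 bases upstream. Kif20b carries TTTGAA as a direct repeat just downstream of its start and no CCAAT. Kif23 and Kif4 have ATTGG a few bases upstream and TTTGAA downstream of the start. The Kif5c stretch has neither motif, and that of Kif3a has ATTGG alone.

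**Figure D3:**
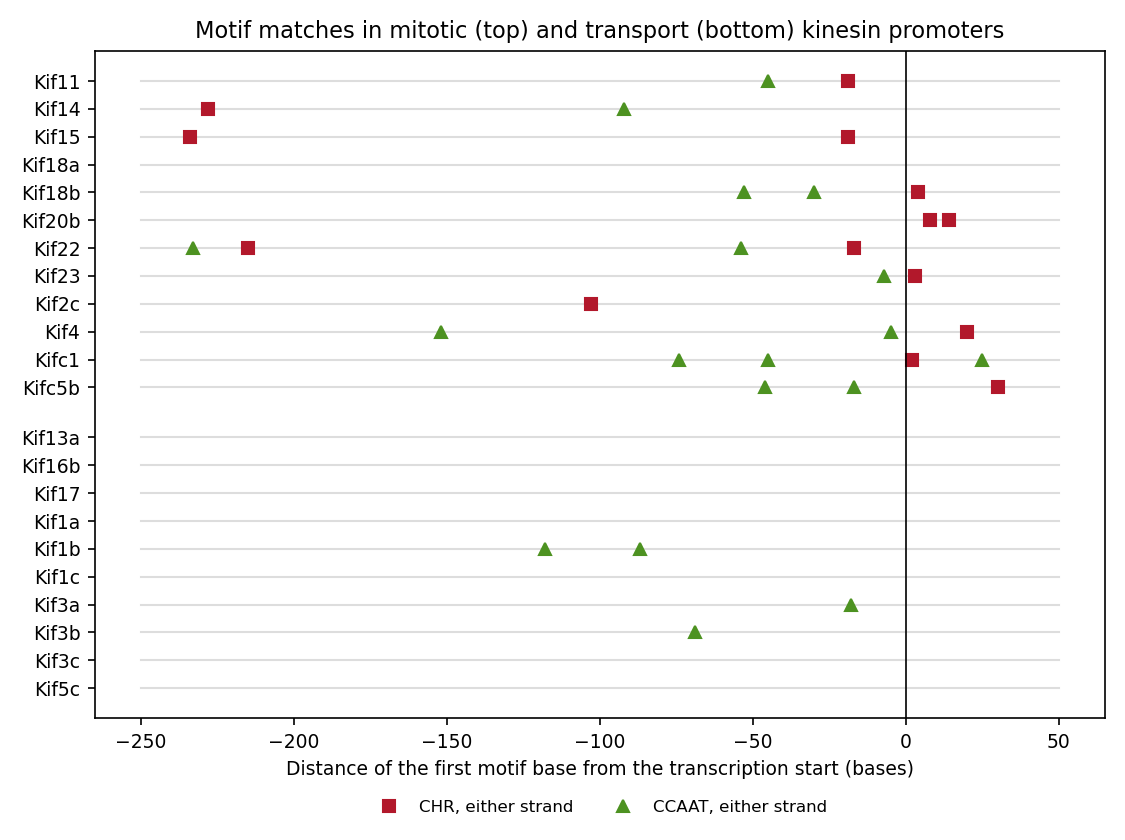
Positions of the first base of each match to TTTGAA (CHR, red squares) and CCAAT (green triangles), on either strand, as distance from the transcription start in bases (x axis), in 12 mitotic and 10 transport kinesin promoters. Squares cluster around the start in 9 of the mitotic promoters, and the transport promoters have none.

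Transport kinesins were mostly near the median of all genes, with Kif5c apart from the rest. The conventional kinesin heavy chains Kif5a, Kif5b and Kif5c, which pair with light chains to carry mitochondria, lysosomes and other cargo, had unlike differences. Kif5b, the form present in most cell types, had signals of 419.0 and 438.2 and a difference of 0.34. Kif5a, best known from neurons, had 573.3 and 438.1 and a difference of -0.11. Its probe is printed several times, and the standard deviation of the log2 signal was 0.03 over 9 spots with PBS and 0.02 over 8 with miR-122; a second Kif5a probe differed by -0.03. Kif5c, likewise a mainly neuronal heavy chain, went from a signal of 18.5, with a software error of 2.91, to 60.9, with an error of 6.58. It was 3.99-fold higher by its single probe, and with normexp 0.83 in log2, under 2-fold. Of 3 neuron markers, 1 was well above background on both arrays and had a difference of -0.01; their part in the Kif5c result was not tested. Without Kif5c the median of the other 14 transport kinesins was -0.00197.

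The kinesin-2 motors, which form Kif3a with Kif3b or Kif3c, bind the adaptor Kifap3 and serve cilia and endosomes, had small positive differences. Kif3a had signals of 316.2 and 309.6 and a difference of 0.25, Kif3b 45.1 and 40.6 and a difference of 0.13, and Kif3c 177.4 and 160.0 and a difference of 0.13. The signs of Kif3b and Kif3c turned with median scaling, to -0.05 each. Kif17, a homodimeric kinesin-2, had 100.8 and 109.3 and a difference of 0.39.

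Kinesin-3 motors, which move vesicles and endosomes over long distances, were divided. Kif13a, which sorts recycling endosomes, had 213.6 and 114.6 and was 1.54-fold lower, the transport kinesin with the most negative difference. Kif16b, which carries early endosomes, had 405.1 and 259.5 and a difference of -0.37. Kif13b was near background at 14.9 and 15.6 and had a difference of 0.34. Kif1b, a carrier of mitochondria and lysosomes, had 1357 and 1085 and a difference of -0.05 by a probe for one RefSeq transcript, and 75.2 and 77.0 and a difference of 0.31 by a probe for another. Kif1c, which acts at macrophage podosomes, had 247.8 and 210.6 and a difference of 0.04, and its 3 probes lay between 0.04 and 0.24. Kif1a, an axonal motor, had 73.3 and 57.6 and a difference of -0.07. The minus-end motors Kifc2 and Kifc3 had differences of -0.32 and -0.30, and Kifc2 had 0.04 with normexp. Of the 15 transport kinesins 5 changed sign among the 5 ways of processing, Kif1a and Kifc2 with normexp alone, as did 0 of the 9 mitotic ones. Values near 0 change sign with small shifts, so this contrast follows from the sizes of the differences.

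**Figure D4:**
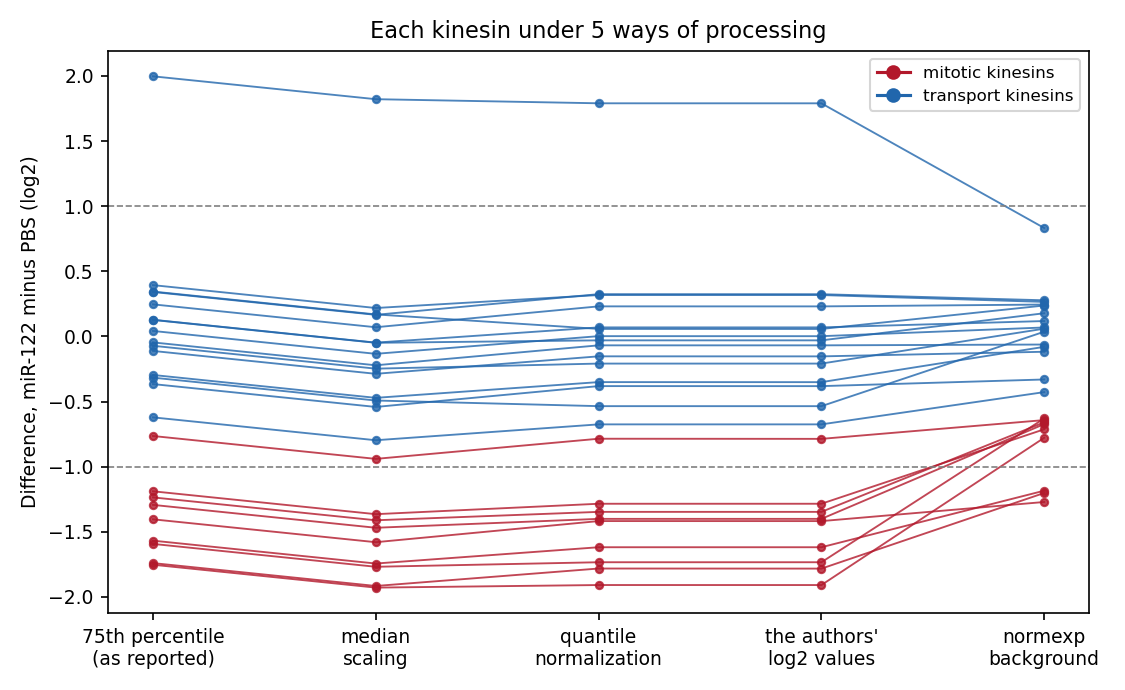
Difference, miR-122 minus PBS (y axis, log2), of the 9 mitotic (red) and 15 transport (blue) kinesins under 5 ways of processing (x axis), each line 1 gene, with dashed lines at 2-fold. The red lines stay below 0 and below the blue ones under all 5, and under normexp 3 red lines stay beyond 2-fold. Quantile normalization and the authors' log2 values give nearly the same differences.

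Of 5 kinesins of cilia measured on both arrays 4 had positive differences, as did 9055 of all 15022 genes, and their median was 0.41. Kif19a, which limits the length of motile cilia, had signals of 70.9 and 118.8 and was 2.03-fold higher, just past 2-fold, or 0.85 in log2 with median scaling and 0.68 with normexp. Kif9, of the motile axoneme, had 33.6 and 42.7 and a difference of 0.62, and its 4 probes lay between 0.42 and 0.91. Kif7, the regulator of Hedgehog signalling at the cilium tip, had 15.2 and 16.7 and a difference of 0.41. Kif6 had 37.2 and 36.2 and a difference of 0.24. Kif24, a centriolar depolymerase that restrains ciliation, had 65.9 and 46.9 and a difference of -0.21. Kif27 passed the flag with miR-122 alone, at 15.0 (software error 3.04) against 10.4 (software error 2.60). It was at least 1.69-fold higher by its bound, which is approximate. That bound holds only without normexp, under which the difference of Kif27 was 0.38.

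None of the 3 kinesins that tune microtubule growth and were measured on both arrays differed by 2-fold, and their median was -0.38. Kif21b, which pauses microtubule growth and is expressed in neurons and immune cells, had 3393 and 1776 and was 1.58-fold lower, a difference of -0.66 that was the same with normexp. Kif2a, a depolymerase of the same subfamily as Kif2c, had 2800 and 1774 and a difference of -0.38. Its other probes gave 0.01 and 0.47, so the direction of Kif2a was not settled by its probes. Kif21a had 73.4 and 62.4 and a difference of 0.04. Among the remaining members, Kif26a passed the flag with PBS alone, at 15.2 against 13.0, with no fold given because its scaled level was not lower on the other array. Kif2b, Kif12, Kif26b, Kif4-ps and Kifc5b were well above background on neither array.

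The partners of the motors showed the same division. Their lists were chosen with earlier results of these data known, so they give no independent support. Of 20 genes for spindle assembly and the midzone all 20 had negative differences, 15 were at least 2-fold lower, and the median was -1.17. Of all 15022 genes, 5967 had negative differences and 1.78% were at least 2-fold lower. Prc1, the midzone bundling protein that recruits Kif4, had signals of 790.8 and 158.0 and was 4.13-fold lower. Anln, the scaffold of the contractile ring, was 3.74-fold lower, Kntc1, a kinetochore checkpoint protein, 3.48-fold lower, and Ska1, which couples kinetochores to microtubules, 4.86-fold lower, with a difference of -1.22 under normexp. Cenpe, the kinesin that carries chromosomes to the metaphase plate and whose symbol lies outside the rule, was named after its values were seen and had a difference of -0.57. With normexp 11 of the 20 were at least 2-fold lower. TTTGAA was present in 12 of the 16 partner promoters found, against 18.1% of all promoters.

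Light chains and cargo adaptors did not follow the spindle genes. None of 18 differed by 2-fold, and the median was -0.05. Of all genes, 1.78% were lower and 4.57% higher by that much, so the count alone sets these 18 apart from few genes. Madd, an adaptor of kinesin-3, had the largest difference at 0.85, Klc4, a kinesin light chain, had -0.57, and Plekhm2 and Arl8a, which link kinesin to lysosomes, had 0.42 each. Among 25 genes of dynein and dynactin, the motor of opposite direction, 1 was higher by 2-fold or more and 0 were lower, near the shares of all genes. The higher one was the adaptor Hook2 at 1.06, under 2-fold with median scaling and normexp, while the dynein intermediate chain Dync1i2 had 0.99, Nde1, a dynein regulator with a mitotic role, -0.81, and the heavy chain Dync1h1 0.56. Of 15 tubulins, the subunits of the track itself, Tuba8 differed by 1.28 from a signal of 25.9 on the PBS array, and by 0.56 with normexp. Tube1, the epsilon tubulin of centrioles, had -0.90, Tubb3 0.40 and Tuba1b -0.34. The medians of dynein genes, 0.10, and tubulins, -0.01, lay close to that of all genes.

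**Figure D5:**
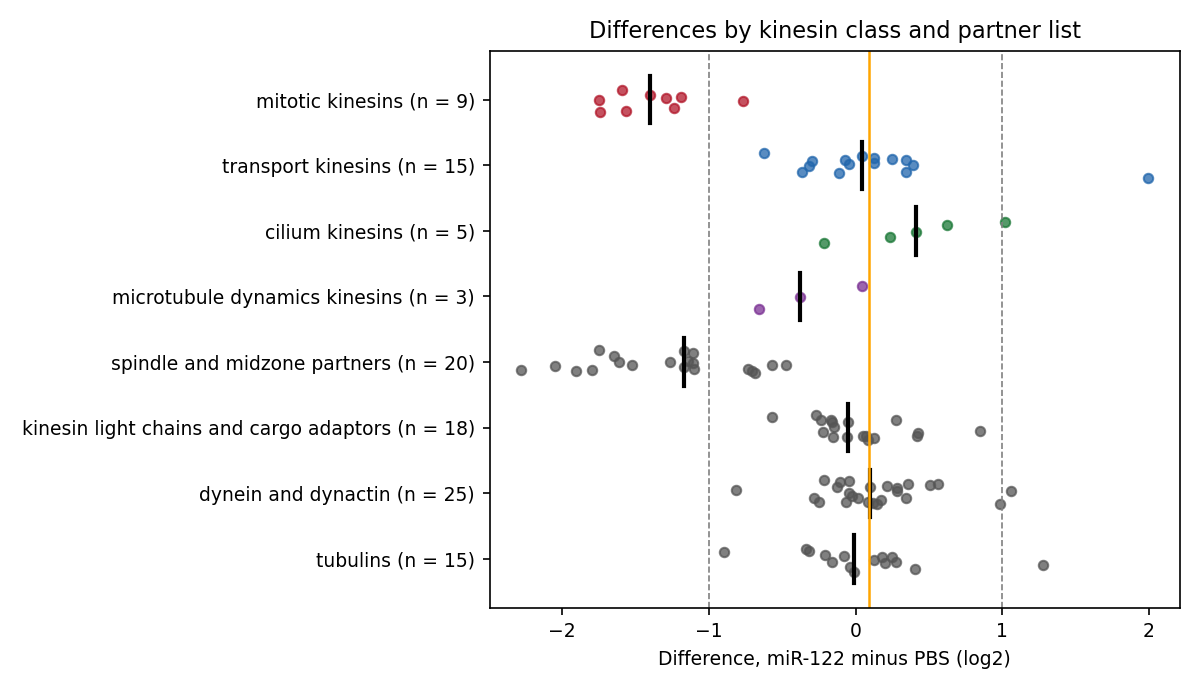
Difference, miR-122 minus PBS (x axis, log2), of each gene well above background on both arrays in 4 kinesin classes and 4 partner lists; black bars are medians, the orange line is the median of all genes at 0.09, and dashed lines mark 2-fold. Mitotic kinesins and spindle partners lie left of 0 with medians of -1.40 and -1.17, the 3 kinesins of microtubule dynamics lie left of the orange line, and the other groups have genes on both sides of it.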

How the data were processed

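Per the file headers, the deposited scanner output came from Agilent Feature Extraction 11.0.1.1 and gives intensity per spot as a background-subtracted, detrended signal with its software error, and as median spot and background intensities. A second deposited table carries the log2 values of the authors, whose normalization no source here states. For the kinesins measured on both arrays its differences nearly equal those of quantile normalization here. Both give 354 genes at least 2-fold lower and 528 higher, so the 2 are not separate checks. Each of its columns has a median of 5.17. Across probes, both correlated with the log2 signal of their own array at 0.997 and of the other array at 0.985, and they are not centred by gene.

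Of 44397 spots, 1377 controls and 145 (PBS) or 196 (miR-122) flagged spots were left out; none was saturated. Log2 signals were averaged by probe and scaled to the 75th percentile of each array with R 4.3.3 and limma 3.58.1. Accessions without versions matched GRCm38.p6 RefSeq names for 27234 of 39429 probes. Genes took their brightest probe well above background on at least 1 array. Those so on 1 array have a bound, the level there minus a level on the other array. The latter was the probe's own level or the dimmest level passing the flag, whichever is higher. Such a bound is approximate, because a probe above that dimmest level may fail the flag. Kif26a did so on the miR-122 array, at -4.74 against -4.92. No test was possible without replicates, and genes of at least 2-fold were counted. Python 3.11.15 with pandas 2.3.3 and numpy 2.4.6 made the tables. The choice of a probe for each gene and the 2-fold count were tried on simulated data. The scaling, the bounds and the promoter search were not.

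All kinesins were described, with the 4 members of each partner list with the largest absolute difference. Members, classes and lists were chosen with earlier results of these data known, and the motifs after the values were seen. RefSeq symbols of the rule with no matched probe were Kif14, Kif28, Kif22-ps, Kif16bos and Kifc5c-ps.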

Additional observations from a re-analysis of the deposited data

How the results depend on the processing

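With normexp background correction, the median difference of mitotic kinesins was -0.71 and its distance from the transport median -0.78; 3 kinesins were lower and 0 higher by 2-fold or more, against 143 and 388 of all genes. Kinesins at least 2-fold higher numbered 1 with the authors' log2 values, with quantile normalization and with median scaling. All genes at least 2-fold lower numbered 456 with median scaling (beside 471 higher), 451 without a filter on dim probes and 900 at 1.5-fold; those at least 2-fold higher numbered 1358 without the filter and 1814 at 1.5-fold. For medians, a shift below the pooled standard deviation of 0.30 between probes of a gene was taken as no change, and for counts a ratio of up to 1.5. By this measure, 22 of 32 single kinesins kept their difference with normexp, and 31 of 32 with the mean over probes, Kif2a moving from -0.38 to 0.03. The 10 that moved with normexp were Kif2c, Kif4, Kif15, Kif18a, Kif20a, Kif20b, Kifc1, Kif5c, Kif19a and Kifc2. Of the kinesins past 2-fold, Kif22 alone kept its difference with normexp. Quantile normalization and the authors' values, which nearly coincide, moved none of the 32. Median scaling moved none either, but it shifts every difference by the same amount, below 0.30. Without a filter on dim probes or with flagged spots kept, these genes had the same or nearly the same values. Those 3 settings are therefore no check of single kinesins. No kinesin past 2-fold changed sign. The medians of transport kinesins and of all genes turned negative with median scaling (-0.13 and -0.08), and with quantile normalization and the authors' values (-0.03 for both medians in both). The offset of normexp narrows log2 differences of dim probes most. No paired analysis was possible because each group has 1 array.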
